A study of Homo sapiens with 7 samples.

Results

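Fatty acid elongases of the ELOVL family and front-end desaturases of the FADS family were examined in DU145 cells and in CSC on Human Exon 1.0 ST arrays. DU145 is an established androgen-independent line of human prostate carcinoma. The study's methods give 3 replicates per condition, but the labels name 4 CSC samples, and all were used. The 3 DU145 arrays carried RNA of the unsorted parental cells, and the 4 CSC arrays carried RNA of the CD44+CD24- cells sorted from the same line. According to the study's methods, the parental cells grew attached in medium with fetal bovine serum, while CSC grew as floating spheroids in serum-free medium with EGF, bFGF and insulin. The sort, the serum, the growth factors and the attachment therefore changed together and cannot be told apart in this comparison. Cells of both groups were otherwise untreated, and their age was not given in the sources used here. Both groups come from 1 cell line, spheroids were pooled for RNA, and no source used here states that the arrays represent separate cultures. P-values below therefore measure only the spread between these arrays, which may be technical. Genes were read from transcript clusters, the probe sets of the array that stand for a gene locus, where the platform table gives the cluster a single gene symbol. By this rule 8 of the 10 genes of both families were measured, among 14232 genes in all. The 5 measured elongases were ELOVL1, ELOVL2, ELOVL3, ELOVL4 and ELOVL6, and all 3 desaturases, FADS1, FADS2 and FADS3, were measured. ELOVL5 shared its only cluster with a ribosomal protein pseudogene, so that no value could be assigned to it, and no cluster named ELOVL7. Each measured gene had 1 such cluster. FADS1 and FADS2 each had a further cluster shared with other genes, which was not read.

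Elongases of the endoplasmic reticulum carry out the condensation step that adds a pair of carbons to a long acyl-CoA. A ketoacyl reductase, a dehydratase and an enoyl reductase then complete each cycle. ELOVL1, ELOVL3 and ELOVL6 act mainly on saturated and monounsaturated chains, ELOVL2 and ELOVL5 on polyunsaturated chains, and ELOVL4 makes very long chains of both kinds. FADS1 is the delta-5 and FADS2 the delta-6 desaturase. In alternation with ELOVL2 and ELOVL5 they turn dietary linoleic and alpha-linolenic acid into arachidonic, eicosapentaenoic and docosahexaenoic acid.

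ELOVL2 stood apart from its relatives. Deposited log2 values read 8.73, 8.79 and 8.62 for parental DU145 cells, whereas CSC read 4.91, 4.66, 5.25 and 5.12. All 4 CSC arrays lay far below all 3 DU145 arrays, and the gap between the groups was many times wider than either group's range of 0.17 and 0.59. Parental cells averaged 8.71 ± 0.08 (SD, n = 3) while CSC averaged 4.99 ± 0.26 (SD, n = 4), which gave a log2 difference of -3.73 with a standard error of 0.15, or 13.2-fold lower in CSC. Of the 22011 transcript clusters, 1 had a more negative difference than ELOVL2. Both families were chosen by this contrast, in which the low ELOVL2 level was already known, so the differences between CSC and DU145 cells are given for all 8 genes as a description and no p-value is attached to them. No detection p-values were used here, and whether the low CSC values lay above the array's background was not tested. In such bulk RNA, fewer expressing cells and less transcript per cell cannot be told apart.

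The 250 bases before the ELOVL2 start site are shown because this gene carries the difference. They lie on chromosome 6, at chr6:11044306-11044555 of GRCh38.p14 on the minus strand, and were taken from RefSeq, which held such a sequence for all 10 genes. Capitals mark the GC box GGGCGG, read on either strand.
ELOVL2: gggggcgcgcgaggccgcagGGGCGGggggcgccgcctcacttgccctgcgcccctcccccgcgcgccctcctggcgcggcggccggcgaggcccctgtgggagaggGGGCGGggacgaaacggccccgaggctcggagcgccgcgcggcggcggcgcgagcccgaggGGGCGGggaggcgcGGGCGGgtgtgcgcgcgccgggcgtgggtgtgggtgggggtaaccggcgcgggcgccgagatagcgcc
This stretch held 4 GC boxes and 45 CpG dinucleotides. At least as many CpGs were found in 0.589% of the 35116 upstream stretches of this length, whose median was 11. A GC box was present in 42.6% of them. GC content was 84.8% before ELOVL2 and between 56.0% and 80.8% before the other 9 genes. For ELOVL3, ELOVL6 and FADS3 the stretch lay before a start site that differs from the annotated start of the gene. On either strand, the ELOVL2 stretch held no CCAAT box (letters CCAAT, in 32.0% of all stretches), no TATA box (letters TATAAA, in 10.7%), no E-box (letters CACGTG, in 6.34%) and no sterol element (letters TCACNCCAC, in 0.883%). No match in this window says nothing of whether the corresponding factors act on the gene.

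**Figure D1:**
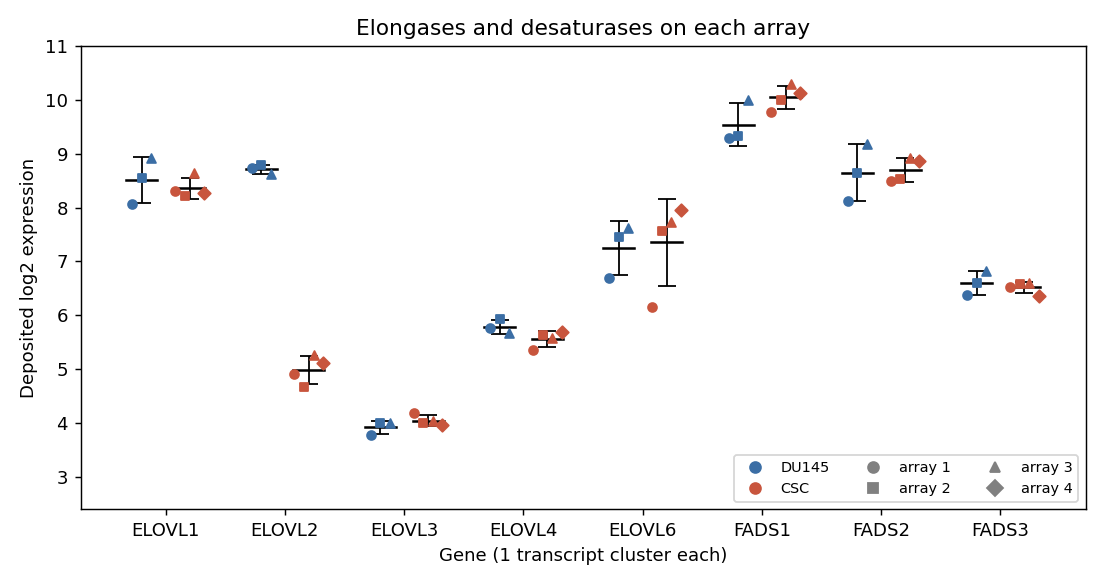
Deposited log2 expression (vertical axis) of the 8 measured genes on each array, with DU145 arrays in blue, CSC arrays in red, a marker shape for each array number, and a black line and bars for the group mean ± SD. Only for ELOVL2 did the groups separate, at 8.62 to 8.79 in DU145 cells and 4.66 to 5.25 in CSC; heights of different genes are not comparable because their probes differ.

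Among the elongases of saturated chains, ELOVL1, which makes very long saturated and monounsaturated acyl chains for sphingolipids, had log2 values of 8.06, 8.54 and 8.92 in DU145 cells and 8.31, 8.22, 8.64 and 8.27 in CSC. Its CSC values lay inside the range of the DU145 values. The log2 difference was -0.15 (standard error 0.22), and it was 0.06 without DU145 array 3. ELOVL6 extends palmitate to stearate. Its values were 6.68, 7.45 and 7.61 in DU145 cells and 6.16, 7.57, 7.73 and 7.96 in CSC. This was the most variable of the 8 genes, because array 1 was the lowest in each group and CSC array 1 lay 1.41 below the next CSC array. The difference of 0.10 (standard error 0.48) became 0.50 without CSC array 1 and was -0.02 after a further quantile normalization. ELOVL3, known from brown fat, liver and sebaceous glands of mice, had values between 3.77 and 3.99 in DU145 cells and between 3.96 and 4.19 in CSC. The deposited value was the same, 3.99, on 3 of the 7 arrays, and the difference was 0.13 (standard error 0.09).

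ELOVL4, an elongase of very long chains in retina, brain and skin, had values of 5.77, 5.93 and 5.66 in DU145 cells and 5.36, 5.64, 5.58 and 5.68 in CSC. Only CSC array 4 reached into the DU145 range. The difference was -0.22 (standard error 0.11) and between -0.30 and -0.15 under the other settings. In kind of substrate ELOVL4 overlaps ELOVL2, yet its difference was small beside the -3.73 of ELOVL2.

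The values of the 3 desaturases overlapped between the groups. FADS1 had log2 values of 9.29, 9.32 and 9.997 in DU145 cells and 9.76, 10.003, 10.29 and 10.12 in CSC. DU145 array 3 reached the CSC range and the other DU145 arrays lay below it. The means were 9.54 ± 0.40 (SD, n = 3) and 10.04 ± 0.22 (SD, n = 4), a log2 difference of 0.51 (standard error 0.21), and the difference stayed above 0 under the other settings, from 0.38 to 0.74. For FADS2 the values were 8.12, 8.65 and 9.18 in DU145 cells and 8.49, 8.53, 8.91 and 8.87 in CSC. All CSC values fell between the lowest and the highest DU145 value, and the difference of 0.05 (standard error 0.26) changed sign with scaling, to -0.02 after median centring and -0.03 after a further quantile normalization. FADS3, a desaturase of sphingoid bases, had values of 6.37, 6.60 and 6.81 in DU145 cells and 6.52, 6.58, 6.60 and 6.36 in CSC, with a difference of -0.08 (standard error 0.12) that was 0.03 without DU145 array 3. FADS1, FADS2 and FADS3 are direct neighbours on chromosome 11, whereas ELOVL2 and ELOVL4 lie apart on chromosome 6.

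**Figure D2:**
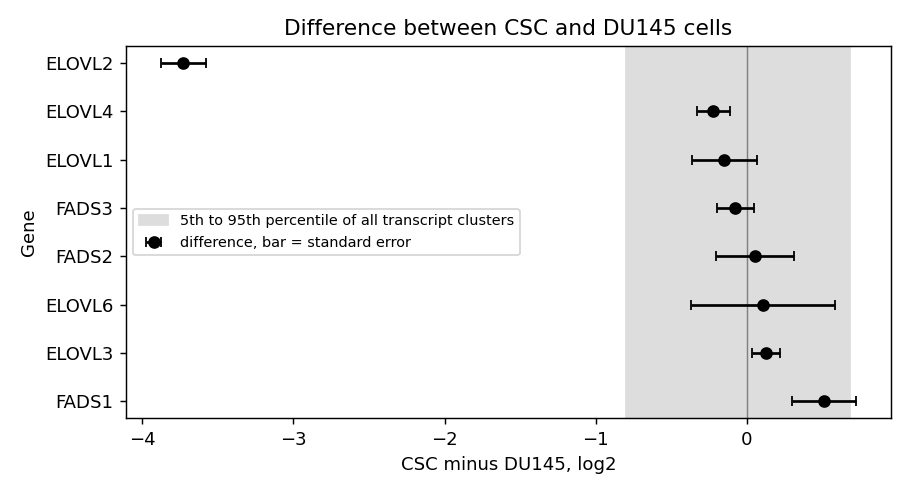
Log2 difference, CSC minus DU145 (horizontal axis), of each of the 8 genes with its standard error, over a grey band from the 5th to the 95th percentile of all 22011 transcript clusters, -0.80 to 0.68. ELOVL2, at -3.73, lies outside the band, and the other 7 genes lie inside it, from -0.22 to 0.51.

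Of the 8 measured genes, 1 was past the limits used for calls over the whole array, namely 0.05 for the limma p adjusted by the method of Benjamini and Hochberg and 1 for the absolute log2 difference, which 1.3% of all clusters met. It was ELOVL2, on the lower side, where 0.577% of all clusters were called. None was past the limits on the higher side, where 0.722% of all clusters were. These shares stand for 159 clusters higher and 127 lower, and the split turned to 192 against 221 when arrays were centred on their medians and to 201 against 229 when they were quantile normalized again. The groups did not overlap for ELOVL2 alone, lower in CSC, as for 6.13% of all clusters. On the higher side 10.8% of clusters did not overlap and none of the 8 genes did. Because this contrast chose the families, nothing is read from these counts. The median log2 difference was -0.01 over the 8 genes and 0.05 over the 7 without ELOVL2, against 0.08 over all clusters. Values of the 8 genes also differed among the DU145 arrays. For ELOVL1, ELOVL6, FADS1, FADS2 and FADS3, DU145 array 1 was the lowest and DU145 array 3 the highest, a pattern of 5 of the 8 genes and of 23.6% of the 14232 genes. Medians of DU145 arrays 1, 2 and 3 over all clusters ran in the same order, at 5.77, 5.80 and 5.89. The part of this offset in the pattern was not tested. CSC array 1 was the lowest CSC array for 4 of the 8 genes, ELOVL4, ELOVL6, FADS1 and FADS2, and for 24.5% of the 14232 genes. For ELOVL1 and the 3 desaturases, the DU145 arrays were more spread (SD 0.22 to 0.53, n = 3) than the CSC arrays (SD 0.11 to 0.22, n = 4). ELOVL2 did not share this pattern, with an SD of 0.08 among the DU145 arrays.

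Over the 7 arrays, 4 genes whose log2 values, centred on the gene's own mean, ran closest to those of ELOVL2 were ANTXR1, EFEMP1, GKN2 and TGFBI. The root mean square difference from ELOVL2 was 0.34 for the collagen-binding membrane protein ANTXR1, 0.44 for the matrix glycoprotein EFEMP1, 0.56 for the gastric mucosal protein GKN2 and 0.69 for the matrix protein TGFBI. ANTXR1 ranged from 9.51 to 9.62 in DU145 cells and from 5.78 to 6.45 in CSC. All 4 genes were lower in CSC without overlap, and this likeness rests on the step between the groups that ELOVL2 was chosen for.

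**Figure D3:**
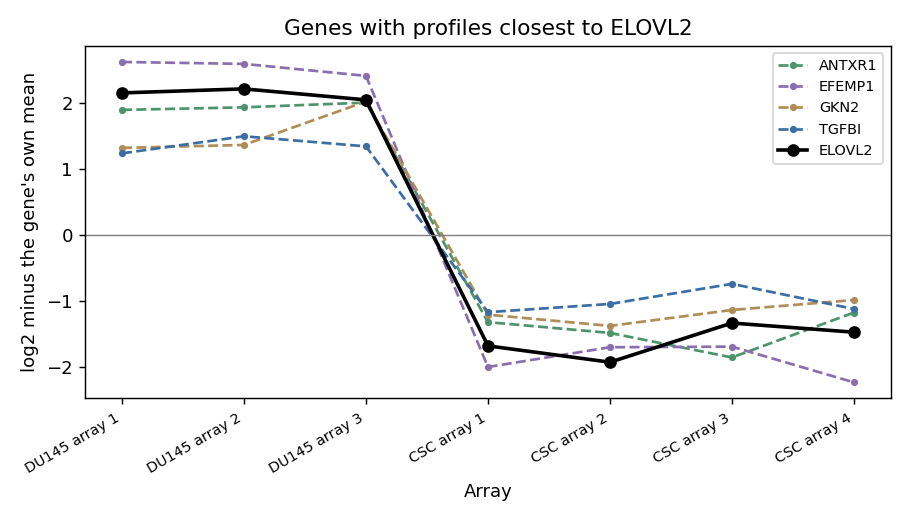
Log2 value minus the gene's own mean over the 7 arrays (vertical axis) on each array, for ELOVL2 (black) and 4 of the genes closest to it by root mean square difference, 0.34 to 0.69. Every line drops between the DU145 and the CSC arrays; lines join arrays only to guide the eye.

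The other genes of long-chain fatty acid metabolism were taken in 9 lists by role. Of 116 listed genes, 93 had a cluster of their own, and of these 1 rose, 1 fell and 91 did not pass the limits. On the higher side this is 1 gene beside 0.722% of all clusters, on the lower side 1 gene beside 0.577%. At an unadjusted p of at most 0.05, 16 of the 93 genes were higher and 3 lower, beside 2116 higher and 596 lower of all 14232 genes. Over all clusters, which include those without a single symbol, the shares were 12.8% higher and 6.93% lower (19.7% in either direction). The median log2 difference over the 93 genes was 0.13, against 0.10 over all 14232 genes. Both called genes activate or import long acyl chains, the step before elongation.

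ACSL4, an acyl-CoA synthetase that prefers arachidonic acid and related polyunsaturated chains, fell. Its log2 values were 7.32, 7.13 and 7.68 in DU145 cells and 5.86, 5.47, 5.25 and 5.97 in CSC. No CSC array reached the lowest DU145 array. The mean fell from 7.38 ± 0.28 (SD, n = 3) to 5.63 ± 0.34 (SD, n = 4), a log2 difference of -1.74 (standard error 0.22, adjusted p = 0.0229 from limma). SLC27A2, a fatty acid transport protein that also activates very long chains, rose. Its values were 4.44, 4.44 and 5.01 in DU145 cells and 6.13, 6.50, 5.87 and 6.12 in CSC. Every CSC array lay above every DU145 array, and the difference was 1.52 (standard error 0.20, adjusted p = 0.0263 from limma). The study's own table of changed genes holds ACSL4 and SLC27A2 and was seen before the lists were written, so these calls are not independent of it. Neither call was kept without DU145 array 1 (adjusted p from limma 0.0883 for ACSL4 and 0.0963 for SLC27A2), without DU145 array 2 (0.0750 and 0.104) or without CSC array 2 (0.0784 and 0.0700). ACSL4 also missed the limit without DU145 array 3 (0.0615), and SLC27A2 without CSC array 1 (0.0522) or CSC array 4 (0.0586). The log2 differences themselves stayed between -1.86 and -1.59 for ACSL4 and between 1.41 and 1.71 for SLC27A2.

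Upstream stretches of these genes are shown for comparison with that of ELOVL2, in RefSeq sequence of GRCh38.p14 with GC boxes in capitals. ACSL4 is at chrX:109733258-109733507 on the minus strand and SLC27A2 at chr15:50181946-50182195 on the plus strand.
ACSL4: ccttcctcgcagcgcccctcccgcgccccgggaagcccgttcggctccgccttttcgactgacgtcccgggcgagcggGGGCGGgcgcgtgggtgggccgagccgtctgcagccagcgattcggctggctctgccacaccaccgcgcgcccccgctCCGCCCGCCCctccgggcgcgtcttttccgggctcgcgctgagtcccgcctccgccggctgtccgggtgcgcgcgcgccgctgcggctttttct
SLC27A2: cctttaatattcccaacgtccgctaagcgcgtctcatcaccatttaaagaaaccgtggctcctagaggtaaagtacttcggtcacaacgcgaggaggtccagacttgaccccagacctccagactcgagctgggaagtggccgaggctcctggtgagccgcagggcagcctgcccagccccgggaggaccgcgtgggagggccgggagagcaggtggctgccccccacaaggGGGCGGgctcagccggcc
The ACSL4 stretch held 3 GC boxes, a pair of them overlapping, and 42 CpG dinucleotides. For SLC27A2 the counts were 1 and 17. Neither stretch held any of the other motifs searched.

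**Figure D4:**
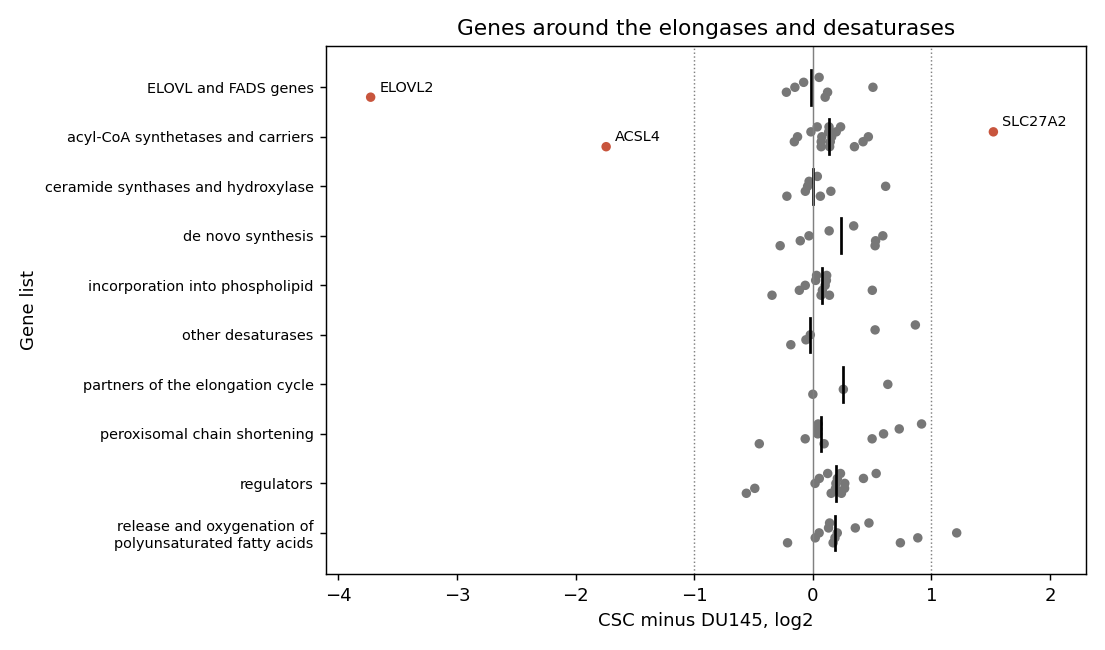
Log2 difference, CSC minus DU145 (horizontal axis), of each measured gene in the 9 lists and of the 8 ELOVL and FADS genes, with black bars for list medians, dotted lines at -1 and 1, and red points for genes past the limits. Only ELOVL2 (-3.73), ACSL4 (-1.74) and SLC27A2 (1.52) are red.

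Among the other 17 measured acyl-CoA synthetases, transport proteins and binding proteins, none passed. ACSL5, a synthetase of mitochondria and endoplasmic reticulum, had a difference of 0.47 (adjusted p = 0.178 from limma), and ACSL1, a synthetase feeding triglyceride synthesis and oxidation, one of 0.42 (adjusted p = 0.290). Both ranged higher in CSC without overlap, as 10.8% of all clusters did. The binding proteins FABP4 and FABP2 had differences of 0.35 and 0.23.

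The partners of the elongation cycle were only partly measured, with 3 of 7 genes. The reductases HSD17B12 and TECR and the dehydratase HACD4 shared their clusters with other genes. The dehydratases HACD3 and HACD2 had differences of 0.63 (adjusted p = 0.160 from limma) and 0.26 (adjusted p = 0.296), and neither passed. HACD3 ranged from 6.30 to 6.81 in DU145 cells and from 7.004 to 7.55 in CSC, without overlap. TECRL, a relative of the enoyl reductase, had a difference of 0.0010.

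Of the 5 other desaturases, none passed. The stearoyl-CoA desaturase SCD, which makes oleate, had values of 9.08, 9.42 and 9.69 in DU145 cells and 9.95, 10.38, 10.22 and 10.49 in CSC. All CSC arrays were above all DU145 arrays, but the difference of 0.87 (standard error 0.19) had an adjusted p of 0.0751 from limma. Its relative SCD5 lay on the opposite side, at -0.18 (adjusted p = 0.234), also without overlap. DEGS2, a desaturase and hydroxylase of ceramide, was higher by 0.53 (adjusted p = 0.0303 from limma), under the fold limit, and DEGS1, the main ceramide desaturase, had a difference of -0.06. In de novo synthesis, 0 of 8 measured genes passed by limma, and 2 reached an unadjusted p of at most 0.05, both higher, where 12.8% of all clusters did. They were MLYCD, which degrades malonyl-CoA (0.59, adjusted p = 0.0551), and the mitochondrial ketoacyl synthase OXSM (0.53, adjusted p = 0.157). The citrate carrier SLC25A1 and the malic enzyme ME1, which supply substrate and NADPH, had differences of 0.53 (adjusted p = 0.262) and 0.35 (adjusted p = 0.422).

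Peroxisomal chain shortening, the last step towards docosahexaenoic acid, was represented by 10 of 15 genes. By limma 0 passed, and 4 reached an unadjusted p of at most 0.05, all of them higher in CSC and without overlap. Over all clusters 12.8% reached that p on the higher side and 10.8% did not overlap there. The thioesterase ACOT8 ranged from 5.24 to 5.83 in DU145 cells and from 6.39 to 6.59 in CSC, a difference of 0.92 (standard error 0.15, adjusted p = 0.0407 from limma) that stayed under the fold limit. The bifunctional enzyme EHHADH had a difference of 0.73 (adjusted p = 0.130), the branched-chain oxidase ACOX2 of 0.60 (adjusted p = 0.116) and the import receptor PEX7 of 0.50 (adjusted p = 0.107).

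Enzymes that place acyl chains into phospholipid showed 0 calls among 12 by limma, and none reached an unadjusted p of at most 0.05, as 19.7% of all clusters did. LPCAT3, which prefers polyunsaturated chains, had values of 7.94, 7.93 and 8.83 in DU145 cells and 8.60, 8.60, 9.14 and 8.61 in CSC, which overlapped (difference 0.50, adjusted p = 0.349 from limma). MBOAT7, which places arachidonate into phosphatidylinositol, had a difference of -0.34 (adjusted p = 0.406). LPCAT1 and LPCAT2 had differences of 0.14 and 0.12. Of 8 ceramide synthases and related enzymes, 0 passed by limma and 1 reached an unadjusted p of at most 0.05, the fatty acid hydroxylase FA2H (0.61, adjusted p = 0.133), a share close to the 12.8% of all clusters on the higher side. The ceramide synthases CERS5, CERS6 and CERS3 had differences of -0.22, 0.15 and 0.06.

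Of 13 genes that release or oxygenate polyunsaturated fatty acids, 0 passed by limma and 2 reached an unadjusted p of at most 0.05, both higher in CSC, a share near the 12.8% of all clusters. The prostaglandin synthase PTGS2, which the study's table holds, had log2 values of 4.35, 3.92 and 3.84 in DU145 cells and 6.16, 4.77, 5.18 and 4.89 in CSC (difference 1.21, standard error 0.35, adjusted p = 0.143 from limma). The groups did not overlap, and CSC array 1 was well above the other CSC arrays. The other was the leukotriene-forming lipoxygenase ALOX5, with a difference of 0.19 (adjusted p = 0.231). The phospholipases PLA2G4C and PLA2G10 and the lipoxygenase ALOX12 had differences of 0.89, 0.74 and 0.47. Among 15 regulators 0 passed by limma, and 3 reached an unadjusted p of at most 0.05, a share near the 19.7% of all clusters. INSIG1, the sterol-regulated retention protein of SREBP processing, ranged from 6.41 to 6.78 in DU145 cells and from 6.84 to 7.59 in CSC (difference 0.53, adjusted p = 0.231). The nuclear receptors PPARG and PPARD had differences of -0.56 (adjusted p = 0.179) and -0.49 (adjusted p = 0.410), and RXRB had one of 0.43 (adjusted p = 0.364). The oxysterol receptor NR1H3, the third gene with a low unadjusted p beside INSIG1 and PPARG, had a difference of 0.27 (adjusted p = 0.185). SREBF2 and PPARA shared their clusters with other genes and were not read.

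The labels were checked against markers. CD44, which the sorted CSC were gated to carry, ranged from 8.62 to 9.39 in DU145 cells and from 7.09 to 8.25 in CSC, lower without overlap (difference -1.18, adjusted p = 0.128 from limma). CD24 overlapped, from 8.67 to 9.35 and from 8.11 to 9.09 (difference -0.40, adjusted p = 0.449 from limma), so these values do not mark the CSC as CD24-negative. The sort read protein by antibody, whereas the arrays read RNA of spheroids grown after it, so the measures differ in kind and in time. CD24 has near-identical copies in the genome, and its cluster is uncertain. Of 4 epithelial markers 2 rose past the limits, as 0.722% of all clusters did. They were CDH1 (which the study's table also holds) and EPCAM, while KRT8 and KRT18 did not pass. The log2 of the summed level of all 4 was 10.5 to 10.7 in DU145 cells and 11.7 to 12.1 in CSC. Of 4 mesenchymal markers none passed, and 3 were lower without overlap, as 6.13% of all clusters were. The differences were -1.06 for ZEB1, -0.59 for VIM, -0.33 for FN1 and 0.12 for CDH2, which overlapped. The summed level of these 4 was 10.8 to 11.3 in DU145 cells and 10.1 to 10.5 in CSC. Neuroendocrine markers summed to 7.54 to 7.63 and 8.03 to 8.31. Of these, the glycolytic enzyme ENO2, which is not confined to neuroendocrine cells, was higher without overlap but did not pass (difference 0.78, adjusted p = 0.0551). SYP, CHGA and NCAM1 overlapped, with differences of 0.24, 0.11 and 0.05. Each sum adds linear values of genes whose heights are not comparable, so the brightest genes weigh most and the sum is no level of the whole list. VIM alone ranged from 10.56 to 11.12 in DU145 cells. With that limit, the epithelial, mesenchymal and neuroendocrine sums moved with the groups as ELOVL2, ACSL4 and SLC27A2 did. The part of these markers in those differences was not tested. Markers of blood and endothelial cells, PTPRC, PECAM1 and CDH5, summed to 5.11 to 5.32 and 5.31 to 5.45, and the luminal markers KLK2, KLK3 and TMPRSS2 to 6.22 to 6.29 and 6.23 to 6.27. Array medians ran from 5.77 to 5.89 in DU145 cells and from 5.88 to 5.91 in CSC. Pearson's r across clusters, which are not independent replicates, was 0.967 to 0.983 within and 0.951 to 0.962 between groups. In 25.5% of clusters the same deposited value stood on at least 3 of the 7 arrays. This held for ELOVL3 among the 8 genes, and FASN, the fatty acid synthase, had 6.53 on 5 arrays. Such repeats narrow the spread of a gene, and the number of arrays limits the precision.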

How the data were processed

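RNA of 3 DU145 and 4 CSC samples had been hybridized to 1 Human Exon 1.0 ST array each. The authors summarized the probes with oneChannelGUI by Robust Multichip Average and quantile-sketch normalization, and deposited 1 log2 value per array for each of 22011 transcript clusters. The genome build was not given in the sources used here. The study describes dropping probe sets without expression or change before its own calls, and whether the deposited table had passed such a filter is not stated. Its log2 values went down to 0.24, and 19.7% of its clusters reached an unadjusted limma p of at most 0.05. Clusters without a change at that p were thus still in it. Groups and replicate numbers came from the sample titles.

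Symbols came from the platform's annotation, updated through gene identifiers to RefSeq. A single symbol stood beside 14432 clusters, several beside 2408 and none beside 5171. Only the first kind was named, by the brightest cluster of a gene. All clusters entered a linear model with empirical Bayes moderation (limma 3.58.1 in R 4.3.3) with group as the only term. A cluster was called where its p, adjusted by Benjamini-Hochberg across the whole table, did not exceed 0.05 and its log2 difference was 1 or more in size. The fit was tested on simulated data. Over all clusters, same-numbered arrays did not deviate together (r = 0.07, -0.01 and 0.05), and the main fit has no pairing. Within the 2 families a replicate block moved standard errors in both directions. That of ELOVL6 went from 0.48 to 0.18, that of FADS1 from 0.21 to 0.11, that of ELOVL2 from 0.15 to 0.18 and that of ELOVL3 from 0.09 to 0.12.

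Members, lists and tests were chosen with earlier results of these data known. The text names all measured members, in each list every called gene and up to 4 others with the largest absolute difference, the measured marker genes, and the 5 genes nearest to ELOVL2, 1 of which is not reported here. ALOX5, NR1H3 and FASN, named beyond these, were chosen after their values were seen. Alternatives covered thresholds, a filter on dim clusters, centring, quantile normalization, moderation, weighting of arrays, an unpaired t-test (the methods name it for other measurements and empirical Bayes for the arrays), a replicate block, the row of a gene and each array left out.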

Additional observations from a re-analysis of the deposited data

Results flagged for a closer look

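Each gene that the naming rule took, and the 3 named beyond it, was screened in the CSC group for an array apart from the other 3. The mark was a gap to the nearest array above Dixon's critical share of the group's range, however small that range. The DU145 group was too small. Of 73 genes, 9 were marked, and none of the 8 ELOVL and FADS genes was. Chance marks about 1 in 20 groups. CSC array 2 was high for FABP4 (3.04), CSC array 3 for LPCAT3 (9.14) and CDH5 (4.72), CSC array 1 for PTPRC (2.31) and FASN (6.54), and CSC array 4 for TMPRSS2 (4.35) and PECAM1 (3.73). CSC array 4 was low for MBOAT7 (6.03) and KLK2 (4.96). Several of these genes hold the same deposited value on other arrays, KLK2 on 4 and PTPRC, CDH5, TMPRSS2 and FASN on 5 of the 7. For these 5 genes the other 3 CSC arrays shared 1 value, so any gap was marked and the chance rate does not apply. The marked array and that shared value were 4.957 and 4.964 for KLK2, 6.536 and 6.526 for FASN and 4.72 and 4.69 for CDH5. They were 2.31 and 2.25 for PTPRC and 4.35 and 3.71 for TMPRSS2.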

How the results depend on the processing

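The log2 difference of ELOVL2 stayed between -3.82 and -3.62 over its 14 alternatives. Of these, the filter on dim clusters, the other moderation and the averaging of clusters cannot change a difference. The replicate block gave the same value as leaving out CSC array 4 (-3.77), which stands alone in its block. With the replicate block no gene of either family passed the call limits. ELOVL2 was the 1 gene past them in every other alternative that gave calls, under both other thresholds and with an unpaired t-test. Because this contrast chose the families, these counts of the 8 genes are a description only. The signs of the small differences of ELOVL6 and FADS2 changed in 5 and 6 of 14 alternatives, and those of ELOVL1 and FADS3 in 1 each. The replicate block and the loss of CSC array 4 were counted separately here, though they gave the same differences. Over all clusters, 286 were called, against 957 at an unadjusted p, 450 without the fold limit, 430 after a further quantile normalization (201 higher and 229 lower), 413 after median centring (192 and 221, against 159 and 127 as deposited), 495 with array weights, 43 with the unpaired t-test (826 at its unadjusted threshold) and 0 with the replicate block in limma, where 999 clusters, 1 of the 8 genes and 4 pathway genes passed at an unadjusted p and the lowest adjusted p was 0.0813. Leaving out single arrays gave 56 to 279 calls. The 2 called pathway genes became 4 without the fold limit and 1 among clusters above the median level, a filter that removed SLC27A2 untested. They became 0 with the unpaired t-test (3 at its unadjusted threshold), 0 with the replicate block and 0 to 2 without single arrays. The adjusted p-values of ACSL4 and SLC27A2 were 0.126 and 0.157 with the replicate block and 0.0879 and 0.0948 with the unpaired t-test. The cause of these shifts was not tested. Each gene had 1 cluster with a single symbol, so averaging such clusters changed nothing for the 8 genes. The clusters that FADS1 and FADS2 share with other genes did not enter the average.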
